A study of Mus musculus with 48 samples.

Results

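The mouse mitochondrial genome carries 37 genes, of which 13 code for mRNAs, 2 for rRNAs and 22 for tRNAs. They were taken as all genes whose symbol begins with mt-, all on chromosome M of build GRCm38, after the Ensembl identifiers of the count tables had been matched to a GENCODE mouse annotation. They were 37 of the 55335 genes in the tables on age and on NudC and 37 of the 52981 mouse genes in the table on the spike-in. The study used ONE-seq, in which RNA whose 5′ end carries nicotinamide adenine dinucleotide (NAD) in place of the usual cap is biotinylated in a single reaction with HEEB, a biotin compound, and the cyclase ADPRC. The labelled RNA is bound to streptavidin, and the bacterial decapping enzyme NudC releases it. RNA kept before the streptavidin step is the input and the eluted RNA the enrichment, and both were sequenced as polyadenylated RNA. All samples were livers of C57BL/6 mice with no other genotype or drug given in the labels.

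The age experiment had livers of 2-month-old (young) and 18-month-old (aged) mice, with 4 input and 4 enrichment libraries of each. The spike-in experiment had livers of 18-month-old mice, to whose RNA a synthetic polyadenylated RNA was added that carried the NAD cap in 0%, 1%, 5% or 10% of its molecules, with 3 input and 3 enrichment libraries for each mixture. The NudC experiment compared elution with and without the enzyme in livers of 12-month-old mice, in 8 libraries. In its table all 37 mitochondrial genes had 0 counts, so it gave no value for them, although other genes of the same table had counts.

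Both strands of the circular mitochondrial genome are transcribed from promoters in its non-coding control region into long RNAs, which are cut into mRNAs, rRNAs and tRNAs, largely at the tRNAs that lie between the longer genes. The mitochondrial RNA polymerase Polrmt starts transcription together with Tfam and Tfb2m, and purified mitochondrial RNA polymerases can use NAD as the first nucleotide of an RNA. The mRNAs receive short poly(A) tails in the organelle, with ND6 mRNA, the only one from the light-strand promoter, known in human cells as an exception. In liver, mitochondria are abundant in hepatocytes.

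Library totals ran from 9149931 to 14953661 counts in the age experiment and from 3694383 to 10277863 in the spike-in experiment. Levels are given in CPM, the counts of a gene scaled to the same total in each library. Taking 3 counts as the upper limit, a count of 0 allowed up to 0.201 to 0.328 CPM in the age experiment. In the spike-in experiment it allowed up to 0.292 to 0.812 CPM. These limits cover counting error only and use the library totals, without the TMM scaling applied to the levels below. The defining hepatocyte markers of liver were present in every library, with a summed level of 102175 to 120661 CPM over the 5 listed genes found in the table in young input and 59225 to 70555 CPM in aged input. In bulk liver, fewer cells of a type and less RNA per cell cannot be told apart. Libraries of a group were described as biological replicates of livers. The listed markers of Kupffer, endothelial, stellate, bile duct, lymphoid and red blood cells were also present, at 0.727 to 713 CPM when summed by list in the age experiment. In the spike-in experiment the enrichment libraries of the 1% mixture, replicate 3, and of the 0% mixture, replicate 1, held 3.99% and 2.86% of their counts on mitochondrial genes, against 0.544% to 2.07% in the other 10, and the values of the mitochondrial genes over the mean of the mixtures are given with and without them below.

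Mitochondrial RNA in the inputs was dominated by a few long mRNAs. In the age experiment, 33 of the 37 genes had at least 1 count, and 27 passed the filter used for testing, which removed genes with 0 counts in more than 25% of libraries. These were all 13 mRNAs, both rRNAs and 12 of the 22 tRNAs. The spike-in table kept 25, with 10 tRNAs. The genes mt-Tf, mt-Ts1, mt-Td and mt-Tk had 0 counts in all 40 libraries of the 2 experiments. For genes this short, 0 counts need not mean absent RNA, since counting left out pairs that matched more than 1 place or gene. The serine tRNA mt-Ts2 had 13 to 44 counts in the inputs of the age experiment but 0 to 3 in its enrichments, and so was not tested there.

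On the scale of CPM per kilobase of gene, scaled by TMM, mt-Co1, the catalytic subunit of cytochrome c oxidase (complex IV), stood at 16398 ± 1960.3 in young input (mean ± SD, n = 4) and 14427 ± 785 in aged input. It was followed by mt-Cytb, cytochrome b of complex III, at 6615 ± 709 in young and 5905 ± 387 in aged input. Next came the complex I subunits mt-Nd1, at 4999 ± 600.3 and 3830.0 ± 181, and mt-Nd2, at 3305 ± 289.6 and 2231 ± 178. The values of these 4 genes did not overlap in either age. In young input the proline tRNA mt-Tp came next, at 2578 ± 226, and mt-Nd5, mt-Nd6 and mt-Nd4 followed at 1785 ± 203, 1696 ± 134 and 1679 ± 143, with overlapping values. The small and large rRNAs, mt-Rnr1 and mt-Rnr2, stood at 1103 ± 124 and 489 ± 110.3, in libraries that had been selected for poly(A). In aged input mt-Nd4, mt-Nd5, mt-Nd6 and mt-Tp lay together at 1504 ± 116, 1348 ± 178, 1293 ± 132 and 1288 ± 66.0, each overlapping its neighbour.

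The other mRNAs were counted at far lower levels. In young input mt-Co3 and mt-Co2, the further complex IV subunits, stood at 32.7 ± 2.60 and 27.7 ± 3.14 CPM per kilobase and mt-Atp6, a subunit of the ATP synthase (complex V), at 24.1 ± 2.71. In counts, mt-Co2 had 182, 166, 237 and 226, against 282648, 245740, 305139 and 243262 for mt-Co1. A block of nuclear DNA on chromosome 1 holds pseudogenes that match a run of these genes. The pseudogene Gm28661 was identical to mt-Co2 over 681 nt, Gm10925 to mt-Atp6 over 678 nt, Gm28437 to mt-Co3 over 783 nt, Gm10222 to mt-Nd4l over 294 nt and Gm28439 to mt-Nd4 over its first 876 nt. Read pairs that match a gene and its copy equally are not counted under the counting settings the authors stated, so the levels of mt-Co2, mt-Atp6, mt-Co3, mt-Nd4l and, in part, mt-Nd4 are uncertain. The mt-Co1 gene also has copies. Gm13340 on chromosome 2 has 97.6% identity over its length, and Gm29216, in the chromosome 1 block, 99.8% over its last 483 nt. The genes mt-Ts1, mt-Td, mt-Tk, mt-Atp8, mt-Tg and mt-Tr lie between genes with a copy in that block. Copies were sought in annotated transcripts only, so whether the block also matches these genes was not tested, and their levels are uncertain too.

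Among tRNAs, mt-Tp held by far the most counts. It is the first gene after the control region on the light strand, at chrM:15356-15422, minus strand, GRCm38, and had 1799, 1589, 2131 and 1846 counts in the young inputs. The first gene of the heavy-strand RNA, the phenylalanine tRNA mt-Tf at chrM:1-68, had 0. The sequence of mt-Tp, from its GENCODE transcript, is shown as that of the most counted mitochondrial tRNA, with no base marked.
mt-Tp: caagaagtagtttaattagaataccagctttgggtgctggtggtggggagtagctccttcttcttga
The next tRNAs in young input were those for cysteine (mt-Tc) and asparagine (mt-Tn), at 265 ± 36.1 and 252 ± 53.5 CPM per kilobase with overlapping values, and glutamate (mt-Te), at 134 ± 11.7. The genes of all 4 lie on the light strand, and the strand of the reads is not known. A tRNA gene is shorter than a sequenced read of the length stated in the study's methods. Pairs that overlap 2 genes are not counted under the stated settings either. No gene follows mt-Tp and 32 nt lie between mt-Tn and mt-Tc, while mt-Tf ends 1 nt before mt-Rnr1. How far this shaped the counts of tRNAs was not tested. Whether these counts came from free tRNAs or from longer RNAs that include them was not tested either.

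The share of a library's counts on mitochondrial genes was lower in every enrichment library than in every input library of the age experiment. It was 5.99, 4.88, 5.46 and 4.94% in the 4 young inputs and 0.625, 0.659, 0.447 and 0.494% in the 4 young enrichments. In aged livers it was 5.32, 4.78, 5.09 and 5.06% in the inputs and 0.518, 0.441, 0.515 and 0.473% in the enrichments. The group means were 5.32 ± 0.520% and 5.06 ± 0.220% (SD, n = 4) for young and aged input and 0.556 ± 0.102% and 0.487 ± 0.0370% for the enrichments. The groups of input and enrichment did not overlap at either age, and the 2 ages overlapped within each.

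**Figure D1:**
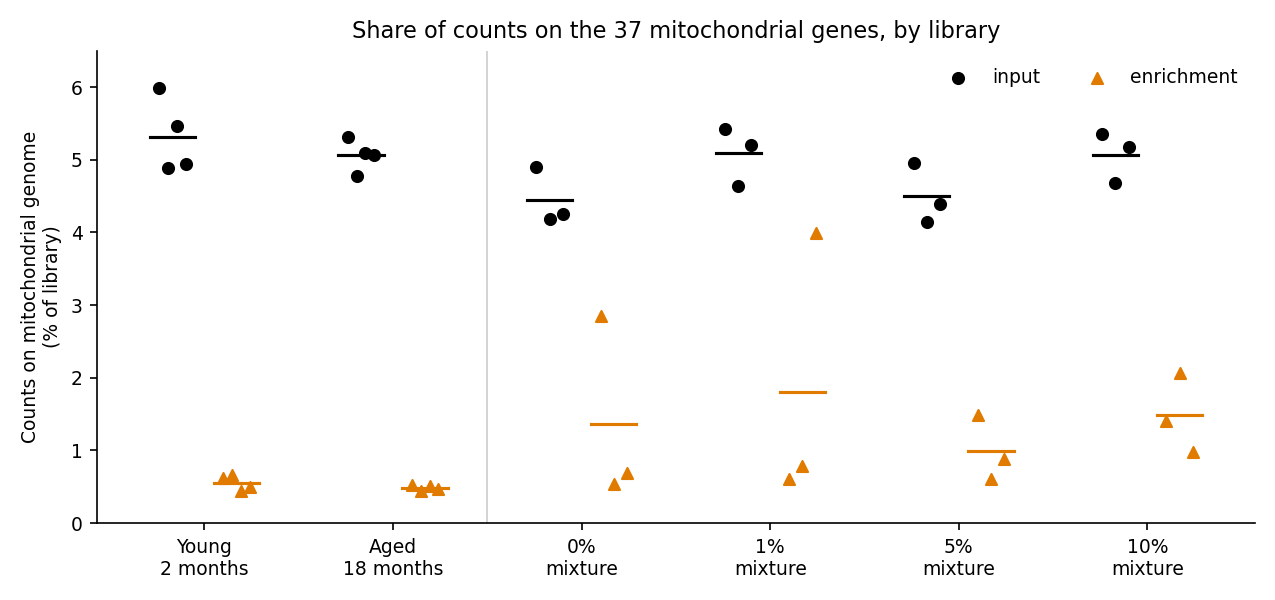
Share of all counts in percent (vertical axis) that fell on the 37 mitochondrial genes, for each library of the age and spike-in experiments (points), by group. Young and aged inputs lie between 4.78% and 5.99% and their enrichments between 0.441% and 0.659%, while the spike-in enrichments spread from 0.544% to 3.99%.

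The make-up of the mitochondrial counts also differed between the fractions. In young input mt-Co1 took 50.9 ± 1.22% of all mitochondrial counts and in young enrichment 27.6 ± 4.89% (SD, n = 4), and the aged values were 53.8 ± 1.79% and 27.2 ± 1.64%. The complex I subunit mt-Nd6 took 1.77 ± 0.0913% in young input and 5.63 ± 0.506% in young enrichment, and 1.62 ± 0.140% and 5.42 ± 0.352% in aged livers. The 9 light-strand genes together took 2.22 ± 0.102% in young input and 6.18 ± 0.438% in young enrichment, most of it mt-Nd6. By class, mRNAs held 95.8 ± 0.721% in young input and 92.8 ± 1.92% in young enrichment, rRNAs 3.71 ± 0.695% and 6.67 ± 1.88%, and tRNAs 0.481 ± 0.0314% and 0.582 ± 0.0720%. In aged livers rRNAs held 2.42 ± 0.472% in input and 4.92 ± 0.809% in enrichment. These shares of one total are descriptions and were not tested.

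To ask which mitochondrial RNAs were recovered by the capture of NAD-RNA, enrichment was compared with input in edgeR's quasi-likelihood test over all genes. None of the 27 tested mitochondrial genes was higher in enrichment in young or in aged livers, and 24 were lower in each (adjusted p under 0.05). Of all 15636 genes tested, 27.2% were lower in young and 27.7% in aged livers, and 27.0% and 26.5% were higher. The rule used for a NAD-RNA, at least 2-fold higher and past the test, was met by 13% of genes in young and 11.5% in aged livers and by 0 mitochondrial genes. The lower calls were all 13 mRNAs, both rRNAs and 9 of 12 tRNAs at each age. All 24 were at least 2-fold lower in young livers, where 14.2% of all genes were, and 23 in aged livers, against 14.3%. The median log2 fold change of the 27 genes was -2.23 in young and -2.51 in aged livers, and that of all genes 0.00 and -0.01. These are changes relative to the other RNAs of a library, since each library is scaled to its own counts. With libraries scaled by their totals alone, 24 mitochondrial genes were again lower at each age, while the share of all calls that were higher went from 49.8% to 28.5% in young and from 48.9% to 27.0% in aged livers. The summed Kupffer cell markers were at 223 to 392 CPM in the inputs and 389 to 713 CPM in the enrichments of both ages. The summed stellate cell markers were at 134 to 184 CPM in the inputs and 203 to 394 CPM in the enrichments, and the endothelial ones at 85.2 to 110.4 CPM in the inputs and 49.4 to 75.7 CPM in the enrichments. None of these 3 lists overlapped between input and enrichment within an age, and their part in the result was not tested.

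Among the complex IV genes, mt-Co1 stood at 28945, 23748, 26551 and 22096 CPM in the young inputs and 2056, 2925, 1387 and 1362 CPM in the young enrichments. In aged livers it stood at 23832, 22107, 22342 and 20878 CPM in input and 1566, 1341, 1346 and 1403 CPM in enrichment. Every enrichment library was below every input library, and the young enrichments varied more among themselves than the aged ones. The log2 fold change was -3.71 ± 0.19 (SE) in young livers, 13.1-fold lower with an adjusted p = 1.2e-12 in edgeR, and -3.98 ± 0.19 in aged livers, 15.8-fold lower with an adjusted p = 7.8e-13. It had rank 18 from the lowest change of 15636 genes in young livers and rank 9 in aged livers. The genes mt-Co2 and mt-Co3 fell by 3.10 and 3.21 in young livers on the log2 scale and by 3.02 and 3.40 in aged livers, on 15 to 38 counts in an enrichment library.

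The complex I genes covered a wide range. The gene mt-Nd1 stood at 5379.8, 4291, 5172 and 4293 CPM in young input and 649.9, 684, 435 and 471 CPM in young enrichment, and its log2 fold change was -3.09 ± 0.13 in young and -3.07 ± 0.13 in aged livers. The gene mt-Nd2 stood at 3864, 3173, 3313 and 3370.5 CPM in young input and 1053, 951, 767 and 799 CPM in young enrichment, with -1.94 ± 0.11 in young and -1.65 ± 0.11 in aged livers. The changes of mt-Nd4 (-2.23 and -2.20) and mt-Nd5 (-2.03 and -1.98) lay close to one another. For mt-Nd3 the 4 young inputs summed to 741 counts and the young enrichments to 196, with -1.80 ± 0.28, while the aged libraries summed to 66 and 1, a ratio of 0.0140 after scaling, with a counting interval from 0.000349 to 0.0806. The gene mt-Nd4l, with at most 38 counts in any library, had -2.97 ± 0.40 and -2.51 ± 0.47.

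The smallest change of any mRNA was that of mt-Nd6, the complex I subunit coded on the light strand. It stood at 977, 875, 858 and 811 CPM in the young inputs and 467, 417, 324 and 321 CPM in the young enrichments. In aged livers it stood at 699, 569, 717 and 699 CPM in input and 294, 245, 322 and 269 CPM in enrichment. Input and enrichment did not overlap at either age. The log2 fold change was -1.20 ± 0.12, 2.3-fold lower with an adjusted p = 3.0e-08 in edgeR, in young livers and -1.25 ± 0.12, 2.38-fold lower with an adjusted p = 1.8e-08, in aged livers. Counting did not use strand, so reads of mt-Nd6 and of RNA antisense to it cannot be told apart. The same holds for every other gene, and a strand given here is that of the gene, not of its reads.

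In complex III, mt-Cytb stood at 8405, 6913, 8119 and 6834 CPM in young input and 1544, 1416, 1056 and 1125 CPM in young enrichment, and its log2 fold change was -2.56 ± 0.12 in young and -2.80 ± 0.12 in aged livers. In complex V, mt-Atp6 had -2.55 ± 0.19 and -2.53 ± 0.19. The overlapping gene mt-Atp8 had only 53 counts over the 4 young inputs and 4 over the young enrichments, and 67 and 2 in aged livers, and in the aged livers the ratio of enrichment to input was 0.0275, with a counting interval from 0.00327 to 0.103. The rRNAs were less reduced than most mRNAs. The small rRNA mt-Rnr1 stood at 1046, 1008, 942 and 1219 CPM in young input and 232, 310.0, 190.3 and 330.0 CPM in young enrichment, with -1.99 ± 0.16 in young and -2.0 ± 0.16 in aged livers, and the large rRNA mt-Rnr2 had -2.08 ± 0.21 and -1.97 ± 0.21. The medians by class were -2.56 for mRNAs, -2.03 for rRNAs and -2.17 for the tested tRNAs in young livers, and -2.80, -1.98 and -2.12 in aged livers.

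The tRNAs ranged most widely. The proline tRNA mt-Tp stood at 184, 154, 185 and 168 CPM in young input and 26.2, 29.0, 17.3 and 22.9 CPM in young enrichment, and its log2 fold change was -2.86 ± 0.13 in young and -3.27 ± 0.14 in aged livers. The histidine tRNA mt-Th (-4.69 and -4.02) and the leucine tRNA mt-Tl2 (-4.48 and -3.78), which lie together between mt-Nd4 and mt-Nd5, had the largest falls of the tRNAs. Those for asparagine, cysteine, tyrosine and methionine were between -1.93 (mt-Tc) and -2.58 (mt-Tm) in young livers, and between -1.99 (mt-Ty) and -3.42 (mt-Tm) in aged livers. The leucine tRNA mt-Tl1 had -3.21 and -1.54. The glutamate tRNA mt-Te, which lies directly before mt-Nd6 on the light strand, had 90, 91, 98 and 114 counts in young input and 57, 35, 37 and 36 in young enrichment and the smallest fall of the tRNAs called, -1.11 ± 0.19 in young and -0.95 ± 0.21 in aged livers.

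The tRNAs for glutamine (mt-Tq), tryptophan (mt-Tw) and alanine (mt-Ta) were not called at either age. The gene mt-Tw had 18, 14, 9 and 10 counts in young input and 20, 7, 6 and 8 in young enrichment. In aged livers it had 8, 6, 6 and 15 counts in input and 19, 6, 15 and 18 in enrichment. Its log2 fold change was -0.18 ± 0.48 in young (adjusted p = 0.78 in edgeR) and 0.96 ± 0.48 in aged livers (adjusted p = 0.095). Input and enrichment libraries of the same number deviated together, and with the library pair as a block the aged change of mt-Tw was 0.97 and passed the test (adjusted p = 0.041; 0.041 to 0.32 over the alternatives), while that of mt-Tl1 no longer did (0.052; 0.0084 to 0.13), nor did it without aged replicate 1, 2 or 4 (0.055, 0.12 and 0.13). The aged count was then 23 lower and 1 higher, the latter on at most 19 counts in a library.

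**Figure D2:**
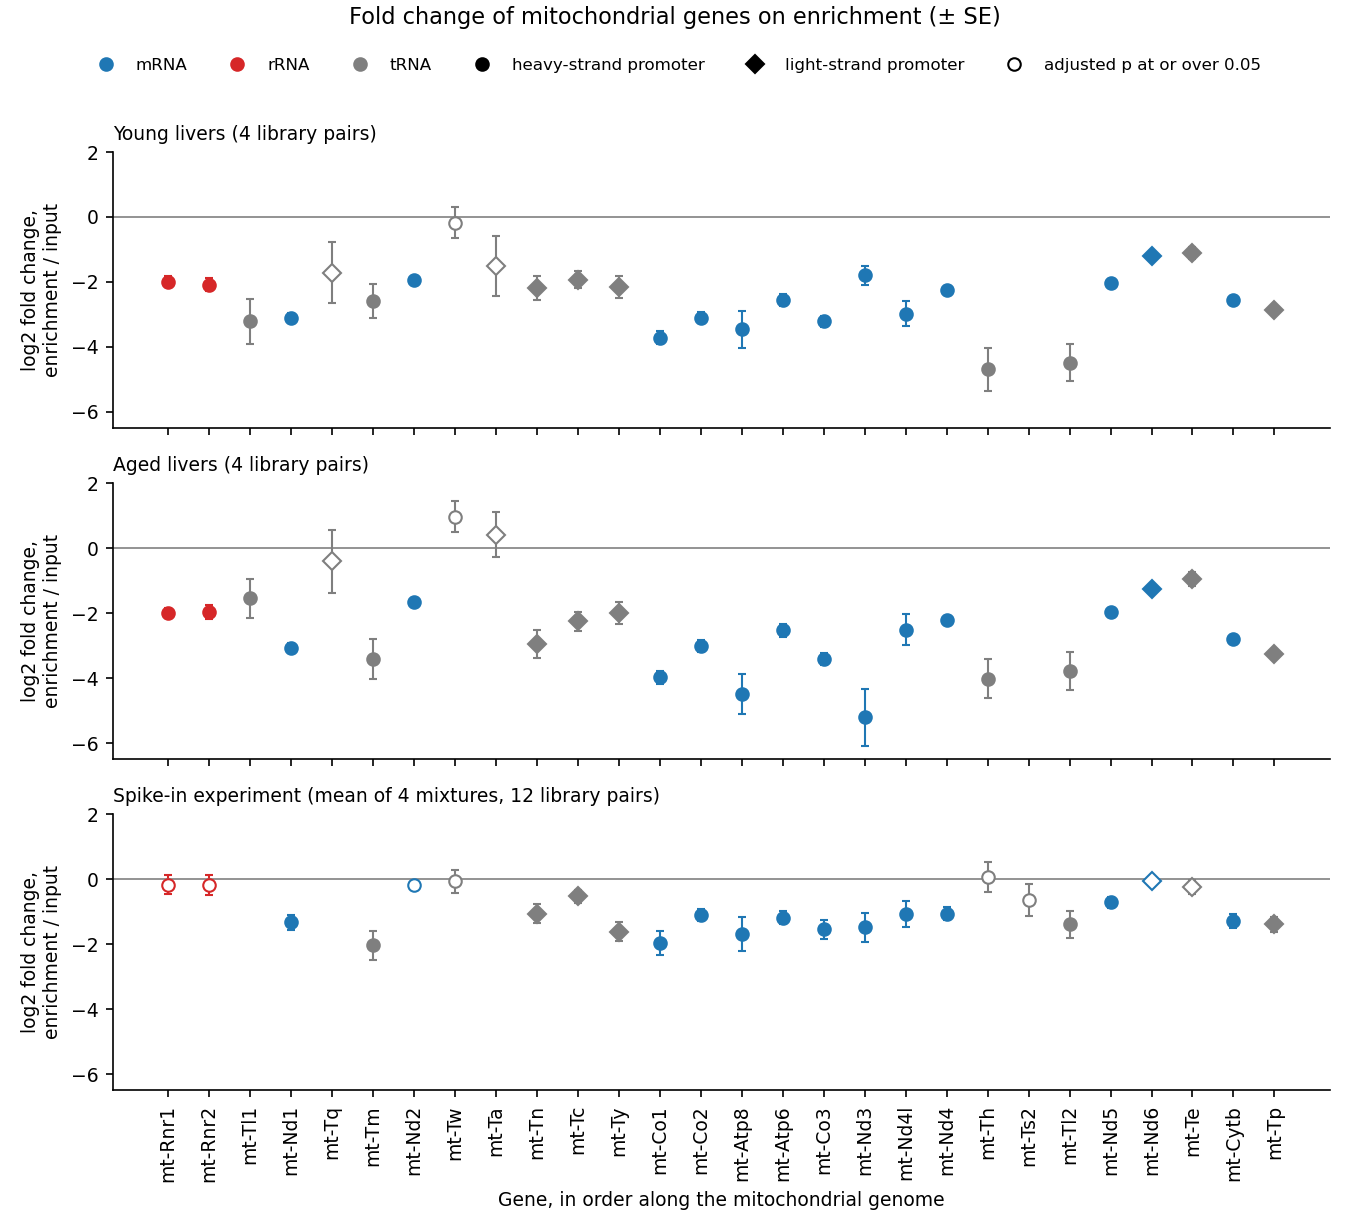
Log2 fold change of enrichment over input (vertical axes, points with standard error) for the tested mitochondrial genes in their order on the chromosome (horizontal axis), in young livers, aged livers and the spike-in experiment. Colour marks mRNA, rRNA or tRNA, diamonds mark genes of the light-strand promoter and open symbols an adjusted p of 0.05 or more. mt-Co1 lies at -3.71, -3.98 and -1.96, and mt-Nd6 at -1.20, -1.25 and -0.06.

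To ask which mitochondrial RNAs were recovered more or less than mitochondrial mRNA as a whole, the test was repeated with the summed counts of the 13 mRNAs as library size. In this fit a value of 0 means the same fold as the mRNAs together, and 95.4% of all genes in young and 97.2% in aged livers were higher, while 0.0576% and 0.0512% were lower. Of the 27 mitochondrial genes 11 were higher in young and 12 in aged livers, and 3 (mt-Co1, mt-Th and mt-Tl2) and 2 (mt-Co1 and mt-Nd3) were lower. The lower count in young livers was 1 to 2 with each replicate left out, and so never 3. It was 1 without replicate 4, where mt-Th was not tested and mt-Co1 and mt-Tl2 were not both called. The call of mt-Th was lost without young replicate 2 or 3 (adjusted p = 0.12 and 0.064 in edgeR). The lower count in aged livers was 1 without replicate 1. Since mt-Co1 held 50.9% of the mitochondrial counts of young input and 53.8% of those of aged input, values of the other genes are in large part values relative to mt-Co1.

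Relative to mitochondrial mRNA, mt-Co1 was itself lower, at -0.84 ± 0.15 in young and -0.94 ± 0.15 in aged livers (adjusted p = 2.6e-06 and 3.1e-07 in edgeR). The light-strand gene mt-Nd6 was 3.27-fold higher in young livers, at 1.71 ± 0.15, and 3.44-fold higher in aged livers, at 1.78 ± 0.15 (adjusted p = 8.1e-13 and 2.8e-13). Its light-strand neighbour mt-Te had 1.79 and 2.08. The complex I mRNAs mt-Nd2 (0.98 and 1.39), mt-Nd5 (0.88 and 1.05) and mt-Nd4 (0.70 and 0.83) were also higher, as were mt-Rnr1 (0.94 and 1.05) and mt-Rnr2 (0.84 and 1.07). The gene mt-Nd3 was at 1.13 in young livers and at -2.66 in aged livers, the latter on 1 count in enrichment and not called without aged replicate 1 or 4. Its aged value is also uncertain because most counts of mt-Nd3 and its copy Gm28438 lay on the copy in aged livers. The tRNA mt-Tw was also higher, at 2.7 and 3.95.

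Not every light-strand gene was higher on this scale. The proline tRNA mt-Tp, on the same strand as mt-Nd6, had 0.05 ± 0.17 in young and -0.23 ± 0.17 in aged livers, and neither passed the test (adjusted p = 0.75 and 0.19 in edgeR). The heavy-strand gene mt-Nd1 had -0.19 ± 0.14 and -0.03 ± 0.14 and was not called. The same held for mt-Co2, mt-Co3, mt-Atp6 and mt-Nd4l, which rest on few counts. The gene mt-Cytb was higher in young livers, at 0.36 ± 0.14 (adjusted p = 0.015 in edgeR, and 0.062 without young replicate 4; 0.0082 to 0.062 over the alternatives), and had 0.23 ± 0.14 in aged livers (adjusted p = 0.11). Of the 8 tested light-strand genes 0 were lower, 3 were higher in young and 6 in aged livers, and of the 19 tested heavy-strand genes 8 and 6 were higher and 3 and 2 lower. With the library pair as a block 5 light-strand genes were higher in young livers, where mt-Tn and mt-Ty then passed the test (adjusted p = 0.033 and 0.034 in edgeR), and mt-Atp6 passed it in aged livers, at 0.45 ± 0.23 (0.047). Without aged replicate 4 the light-strand tRNAs mt-Tc and mt-Ty were not called in aged livers (adjusted p = 0.18 and 0.15), and mt-Ty was not called without aged replicate 2 (0.051).

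**Figure D3:**
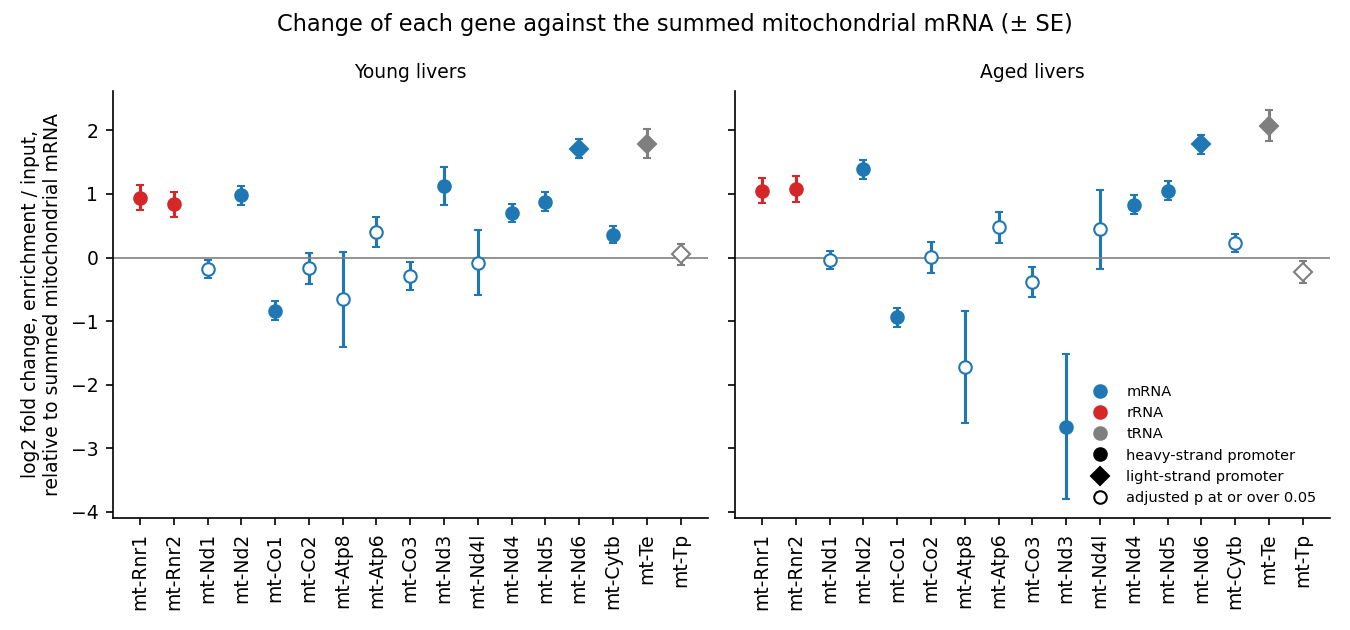
Log2 fold change of enrichment over input relative to the summed mitochondrial mRNAs (vertical axes, with standard error) by gene (horizontal axes), with a panel for young and a panel for aged livers. mt-Nd6 lies at 1.71 and 1.78 and mt-Co1 at -0.84 and -0.94.

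Position along the heavy-strand RNA and the log2 fold change were weakly correlated. Over the 14 heavy-strand mRNAs and rRNAs, Pearson's r between the start of the gene and the log2 fold change was -0.06 in young and -0.22 in aged livers. Over the 9 mRNAs and rRNAs with at least 1000 counts in every young input, genes with a higher level per kilobase in input had the more negative change, with r = -0.74 in young and -0.76 in aged livers. Over all 15 mRNAs and rRNAs, which include those with few counts, r was 0.24 and 0.44, of the opposite sign. These are descriptions across genes that share transcripts and libraries, and the input level enters both measures.

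Between ages, the input itself differed. Of the 27 tested mitochondrial genes 12 were lower in aged than in young input and 0 higher, where 12.0% of all genes were lower and 12.5% higher. The 12 were 7 mRNAs, both rRNAs and 3 tRNAs, and the count was 7 without aged replicate 2. The mRNAs included mt-Nd3 and mt-Nd4l, whose nuclear copies had higher counts in aged input. With mt-Nd3 and its copy summed the difference was 0.13 (adjusted p = 0.76 in edgeR). The median log2 difference of the 27 was -0.57 and that of all genes 0.01. Beside this, the summed hepatocyte markers given above were lower in every aged input than in every young input. The bile duct markers were at 7.05 to 7.99 CPM in young and 10.4 to 12.4 CPM in aged input and the lymphoid ones at 0.727 to 2.71 and 2.77 to 5.74 CPM, both higher in every aged input, and the part of all 3 lists in the result was not tested.

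The 2 mRNAs with the highest levels per kilobase, mt-Co1 and mt-Cytb, did not pass the test, nor did mt-Nd4. For mt-Co1 the difference of aged from young input was -0.18 ± 0.17 (adjusted p = 0.47 in edgeR), for mt-Cytb -0.16 ± 0.12 (0.34) and for mt-Nd4 -0.16 ± 0.10 (0.25). When libraries were scaled by their totals alone, which moved the median of all genes to 0.20, these 3 were at 0.01, 0.03 and 0.03, so their direction depended on the scaling. The same scaling took mt-Atp8 from -0.10 to 0.09, and mt-Co2 and mt-Atp6, at -0.23 and -0.26, were not called. With that scaling the count of lower genes was 7 and the share of all calls that were higher 77.6%, against 51.0%. Lower by the TMM scaling were the complex I mRNAs mt-Nd2 at -0.57 ± 0.11 (adjusted p = 3.5e-04), mt-Nd5 at -0.41 ± 0.13, mt-Nd6 at -0.39 ± 0.12 and mt-Nd1 at -0.38 ± 0.12, and the complex IV mRNA mt-Co3 at -0.66 ± 0.14. Of these mt-Nd5, mt-Nd6 and mt-Nd1 did not pass the test with the libraries' totals alone (adjusted p = 0.23, 0.22 and 0.23 in edgeR). The call of mt-Nd6 was also lost without aged replicate 2 (0.071), and those of mt-Nd5 and mt-Nd1 without young replicate 1 (0.088 and 0.075) or aged replicate 1 (0.053 and 0.082) or 2 (0.093 and 0.051), that of mt-Nd1 also without aged replicate 4 (0.068). Over all alternatives the adjusted p ran from 0.0028 to 0.23 for mt-Nd5, 0.0022 to 0.22 for mt-Nd6 and 0.0033 to 0.23 for mt-Nd1. The gene mt-Nd4l was at -1.51 ± 0.32 (adjusted p = 0.0014 in edgeR), on 16 to 38 counts in young and 12 to 18 in aged input. Counts on its nuclear copy Gm10222 went the other way, as given below.

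The small rRNA mt-Rnr1 stood at 1046, 1008, 942 and 1219 CPM in young and 590.1, 417, 495 and 610.2 CPM in aged input, without overlap, and differed by -1.0 ± 0.15 (adjusted p = 4.5e-05 in edgeR), and mt-Rnr2 by -0.70 ± 0.20 (0.012). The call of mt-Rnr2 was lost without young replicate 1 or aged replicate 2 (adjusted p = 0.054 for each, 2.3e-08 to 0.062 over the alternatives in edgeR and DESeq2). The tRNA mt-Tp stood at 184, 154, 185 and 168 CPM in young and 83.5, 82.1, 91.9 and 87.7 CPM in aged input, 2.00-fold lower in the latter, with -1.0 ± 0.12 (adjusted p = 2.3e-06). The tRNAs mt-Te and mt-Tc were also lower, at -0.94 ± 0.19 and -0.76 ± 0.25. The call of mt-Tc was lost with the libraries' totals alone (-0.57, adjusted p = 0.085 in edgeR), and without young replicate 4 (0.086) or aged replicate 1 (0.060), 2 (0.064) or 3 (0.059). Those were all the tRNAs called. The genes of all 3 lie on the light strand, as does mt-Nd6, and the strand of the reads is not known.

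The largest difference of the 27 genes was that of mt-Nd3, a small complex I subunit. It had 214, 215, 151 and 161 counts in the young inputs and 14, 10, 13 and 29 in the aged inputs. In the enrichments it had 78, 28, 47 and 43 counts in young and 0, 0, 1 and 0 in aged livers. The fitted difference in input was -3.91 ± 0.33 (adjusted p = 7.0e-09 in edgeR). Its nuclear copy Gm28438, at chr1:24612775-24613119 on the minus strand, went the other way. It had 21, 23, 17 and 17 counts in young and 383, 161, 230 and 370 in aged input, a difference of 3.44 ± 0.28. The 2 genes are alike in all but 1 base over 345 nt, T3C in mt-Nd3 coordinates counted from its first base (chrM position 9461), and the first 43 bases of each are shown because this is the one base of the alignment at which they differ. Capitals mark that base.
mt-Nd3: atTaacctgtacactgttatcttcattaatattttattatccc
Gm28438: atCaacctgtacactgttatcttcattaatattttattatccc
Of the counts on the pair, mt-Nd3 held 91.1, 90.3, 89.9 and 90.4% in the young inputs and 3.53, 5.85, 5.35 and 7.27% in the aged inputs. With the counts of both summed, an alternative chosen after seeing the data, the difference was 0.13 ± 0.25 (adjusted p = 0.76). Most counts of the pair thus lay on mt-Nd3 in young input and on Gm28438 in aged input, and the difference in their sum did not pass the test.

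In the spike-in experiment, all from 18-month-old livers, mt-Nd3 held between 0% and 8.28% of the counts on the pair. In the enrichments mt-Nd3 held 93.3% to 97.9% in young and 0% to 1.03% in aged livers. The tRNA mt-Tg, which lies directly before mt-Nd3 on the heavy strand, had 12, 8, 15 and 18 counts in young input and 0 in each aged input. It was too low to be tested and is shown because its gene abuts mt-Nd3. The gene lies between mt-Co3 and mt-Nd3, which both have a copy on chromosome 1, so its level is uncertain.
mt-Tg: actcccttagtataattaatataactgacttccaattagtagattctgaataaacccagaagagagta
Whether the base at the third position of mt-Nd3 differed between the mice of the 2 ages was not tested, since no reads were used here.

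**Figure D4:**
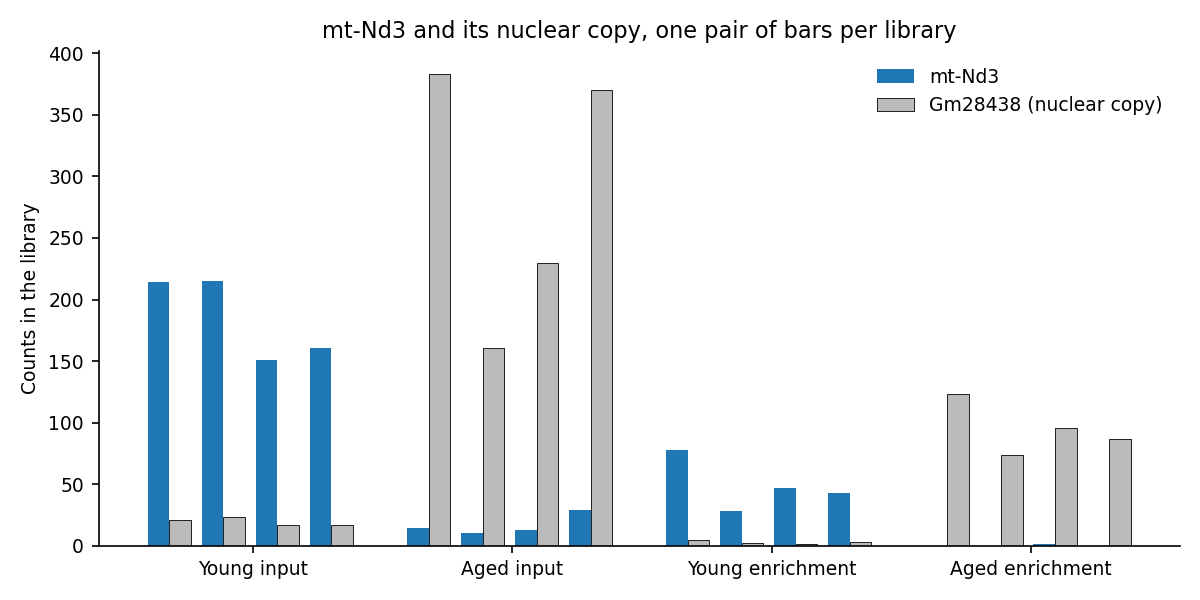
Counts on mt-Nd3 and on its nuclear copy Gm28438 (vertical axis, from 0), with a pair of bars for each library of the age experiment, by group. In the young inputs mt-Nd3 has 151 to 215 counts and Gm28438 17 to 23, and in the aged inputs 10 to 29 and 161 to 383.

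The test of whether the fold of enrichment over input differed between ages called 0 of the 27 mitochondrial genes, and 0.0% of all genes, in edgeR. At an unadjusted p under 0.05 there were 2 of the 27, and 589 of all 15636 genes in edgeR and 576 in DESeq2, which also called 0 after adjustment. The 2 were mt-Nd3, at -3.41 ± 1.06 (unadjusted p = 0.0041 in edgeR), which rests on 1 count in aged enrichment, and mt-Tp, at -0.41 ± 0.19 (unadjusted p = 0.039). The value of mt-Nd3 is also uncertain because Gm28438 held most counts of the pair in aged livers. For mt-Co1 the difference in log2 fold change was -0.27 ± 0.24 and for mt-Nd6 -0.05 ± 0.17. Neither passed the test.

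In the spike-in experiment the mitochondrial genes were again lower in enrichment on average, with more spread between library pairs. Whether the mixtures shared livers is not given in the labels. Input shares on mitochondrial genes by replicate were 4.90, 4.19 and 4.26% in the 0% mixture and 4.96, 4.14 and 4.39% in the 5% mixture. They were 5.42, 4.64 and 5.21% in the 1% mixture and 5.35, 4.68 and 5.17% in the 10% mixture. The nuclear gene Nnt, described at the end, had 3 to 12 counts in the 0% and 5% inputs. It had 752 to 1057 in the 1% and 10% inputs, so these 2 sets of inputs differed in Nnt. The mean of the mixtures pools both sets. The fit treated all libraries as independent and took no account of this difference or of livers used in more than 1 mixture. Over the mean of the 4 mixtures, 17 of 25 tested mitochondrial genes were lower and 0 higher, where 34.7% of all genes were lower and 31.7% higher, and 0 met the rule for a NAD-RNA, where 11.4% did. Their median log2 fold change was -1.07 and that of all genes -0.05. The 17 were 11 of 13 mRNAs, 0 of 2 rRNAs and 6 of 10 tRNAs. Without the 2 library pairs named above, an alternative chosen after seeing the data, 21 were lower. With libraries scaled by their totals alone 20 were lower, and the share of all calls that were higher went from 47.7% to 23.3%.

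For mt-Co1 the change was -1.96 ± 0.36 (adjusted p = 5.9e-05 in edgeR), and the log2 ratio of enrichment to input was below 0 in 12 of 12 pairs, from -3.77 to -0.31. It stood at 23277, 19012 and 18591 CPM in the 0% inputs and 13708, 1393 and 1592 CPM in the 0% enrichments. In the 1% mixture it stood at 27432, 22194 and 23807 CPM in input and 2333, 3095 and 19264 CPM in enrichment, and the highest enrichment value of the 0% and of the 1% mixture comes from 1 of the libraries named above. The 5% mixture had 23189, 18846 and 18715 CPM in input and 6282, 1718 and 1976 in enrichment. The 10% mixture had 27581, 22959 and 24103 CPM and 7520.1, 10714 and 3561 CPM. Without those 2 pairs the mean change of mt-Co1 was -2.78 ± 0.21.

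Among the other mRNAs, the changes were -1.68 for mt-Atp8, -1.54 for mt-Co3, -1.47 for mt-Nd3, -1.32 for mt-Nd1, -1.28 for mt-Cytb, -1.18 for mt-Atp6, -1.10 for mt-Co2, -1.07 for mt-Nd4l (not called without 0% replicate 3, 1% replicate 2 or 5% replicate 1), -1.06 for mt-Nd4 and -0.71 for mt-Nd5. Without the 2 pairs all 10 were more negative. The changes were then -3.25 for mt-Atp8, -2.20 for mt-Co3, -3.17 for mt-Nd3, -1.75 for mt-Nd1, -1.70 for mt-Cytb, -1.56 for mt-Atp6, -1.46 for mt-Co2, -1.74 for mt-Nd4l, -1.42 for mt-Nd4 and -0.96 for mt-Nd5. Those not called with all pairs were mt-Nd2, at -0.18 ± 0.10 (adjusted p = 0.093 in edgeR), and mt-Nd6, at -0.06 ± 0.10 (0.62). For mt-Nd6 the ratio was below 0 in 7 of 12 pairs, from -0.62 to 0.29. Without the 2 pairs mt-Nd2 was lower, at -0.27 ± 0.06 (adjusted p = 6.9e-04), and mt-Nd6 stood at -0.15 ± 0.08 (0.10). Among tRNAs mt-Tp was lower, at -1.39 ± 0.23 and without the 2 pairs at -1.85 ± 0.13, and mt-Te stood at -0.24 ± 0.21 (0.33) and without them at -0.40 ± 0.22 (0.11). With libraries scaled by their totals alone, which moved the median of all genes to -0.50, mt-Nd2, mt-Nd6 and mt-Te were lower, at -0.62, -0.49 and -0.66.

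The rRNAs turned on a few libraries. The small rRNA mt-Rnr1 had 3614, 2746 and 3855 counts in the 1% inputs and 462, 1563 and 10873 in the 1% enrichments, so that it was higher in enrichment in replicate 3 and lower in the other 2. In the 10% mixture it had 342, 348 and 451 CPM in input and 529, 707 and 312 CPM in enrichment, and replicates 1 and 2 were higher in enrichment. Over the 12 pairs the log2 ratio was below 0 in 9 and ran from -1.60 to 2.17. The mean changes were -0.16 ± 0.28 for mt-Rnr1 (adjusted p = 0.63 in edgeR) and -0.18 ± 0.30 for mt-Rnr2 (0.61). Without the 2 pairs both were lower, at -0.75 ± 0.13 (adjusted p = 1.7e-05) and -0.74 ± 0.18 (0.0011). Leaving out replicate 3 of the 1% mixture alone gave -0.67 and -0.68, both past the test.

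**Figure D5:**
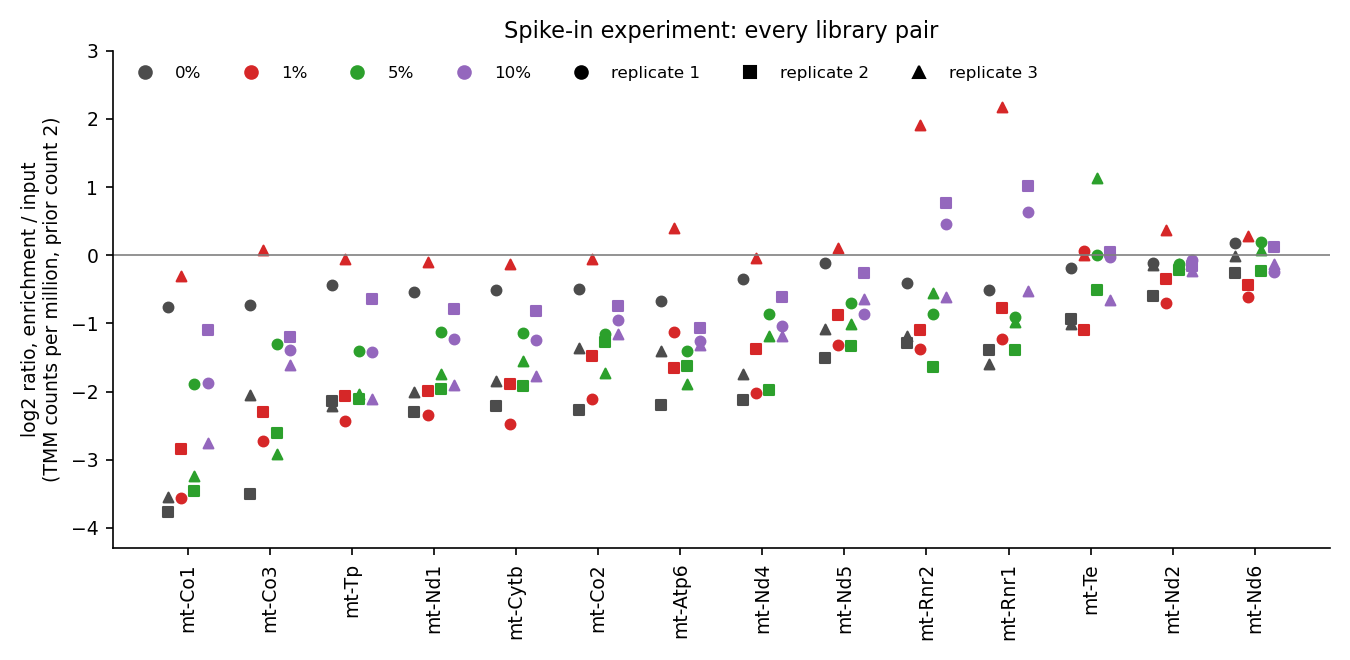
Log2 ratio of enrichment to input (vertical axis, CPM with a prior count of 2) for 14 mitochondrial genes (horizontal axis) in each of the 12 library pairs of the spike-in experiment, with colour for the mixture and shape for the replicate. The ratio of mt-Co1 is below 0 in 12 of 12 pairs, that of mt-Nd6 runs from -0.62 to 0.29, and that of mt-Rnr1 reaches 2.17 in replicate 3 of the 1% mixture.

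Within mixtures, 9 genes were lower in the 0% mixture, where 17.7% of all genes were, 1 in the 1% mixture (mt-Ty), where 9.68% were, 12 in the 5% mixture, where 23.9% were, and 5 in the 10% mixture, where 13.7% were, and 0 were higher in any. These counts moved with single libraries. That of the 1% mixture was 21 without replicate 3 and 0 without replicate 1 or 2, and that of the 0% mixture 0 without replicate 2 or 3. That of the 5% mixture was 4 without replicate 2 and 3 without replicate 3, and that of the 10% mixture 0, 2 and 0 without replicates 1, 2 and 3. With the library pair as a block the counts were 8 in the 1% mixture and 8 in the 10% mixture. Whether the fold of the mitochondrial genes differed between mixtures was not tested.

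The order of the changes was alike in the 2 experiments, which share no library. Over the 15 mRNAs and rRNAs, Pearson's r between the log2 fold changes was 0.79 (Spearman's rho 0.75) for young livers and the spike-in experiment and 0.83 (0.94) for aged livers and the spike-in experiment, as a description across genes that share transcripts. Without the 2 library pairs r was 0.65 (0.67) and 0.96 (0.96). Within both, mt-Co1 lay near the lower end and mt-Nd6 at the upper.

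Nuclear genes for respiratory subunits and mitochondrial ribosomal proteins were more often higher than lower in enrichment. Of 78 nuclear genes for subunits of the respiratory complexes, 60 were higher and 3 lower in young enrichment (27.0% and 27.2% of all genes were), 44 and 6 in aged (26.5% and 27.7% of all genes), and 62 and 3 over the spike-in mixtures (31.7% and 34.7%). The medians were 0.81, 0.46 and 0.64. Of 77 genes for mitochondrial ribosomal proteins, 55 were higher and 5 lower in young, 47 and 7 in aged livers and 64 and 6 in the spike-in experiment, with medians of 0.54, 0.51 and 0.54. Of 33 genes for mitochondrial transcription and RNA maturation, 14 were higher and 7 lower in young livers, 15 and 9 in aged and 13 and 9 in the spike-in experiment. The lower ones were 21.2%, 27.3% and 27.3% of this list, against 27.2%, 27.7% and 34.7% of all genes, and the higher ones 42.4%, 45.5% and 39.4%, against 27.0%, 26.5% and 31.7%.

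For complexes with subunits from both genomes, Uqcrc2, a nuclear subunit of complex III, changed by 0.89 ± 0.09 in young and 1.05 ± 0.09 in aged livers, where mt-Cytb was at -2.56 and -2.80. Cox4i1 of complex IV was at 0.71 ± 0.14 in young (adjusted p = 1.6e-04 in edgeR) and 0.25 ± 0.14 in aged livers (0.13), where mt-Co1 was at -3.71 and -3.98. Ndufs1 of complex I rose by 0.43 and 0.46, and Atp5b of complex V by 0.90 and 0.87. Sdha of complex II, which has no subunit from the mitochondrial genome, fell, with -0.47 ± 0.09 and -0.29 ± 0.09. Of the genes for transcription in the organelle, Tfam, which packages and helps transcribe its DNA, rose by 1.23 and 1.19, Polrmt fell, with -0.40 ± 0.15 and -0.80 ± 0.14, and Tfb2m stood at 0.26 ± 0.13 and 0.24 ± 0.13 without passing the test. Lrpprc, which binds and stabilizes mitochondrial mRNAs, fell, with -0.75 ± 0.13 and -0.64 ± 0.13, and Mtpap, the mitochondrial poly(A) polymerase, rose by 0.41 and 0.37, while Slirp, whose protein partners Lrpprc, stood at 0.58 ± 0.39 and 0.69 ± 0.39 without passing the test.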

How the data were processed

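The authors trimmed the paired-end reads, aligned them with STAR to build GRCm38 and counted read pairs per gene with featureCounts against a GENCODE annotation, without using strand and leaving out pairs that matched more than 1 place, and they deposited raw counts per gene. The libraries were made from poly(A)-selected RNA, so rRNAs, tRNAs and RNAs without a tail were counted only as far as they passed that selection. The tables pair no symbols with the Ensembl identifiers, and symbols, positions and transcript sequences here came from a nearby GENCODE release of the same build. The members and the gene lists were chosen with earlier results of these data known. Of the columns, 4 could not be matched to a sample and were not used.

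Counts were analysed with edgeR 4.0.16 in R 4.3.3 by the quasi-likelihood F-test, with TMM (trimmed mean of M-values) scaling, all groups of a table in 1 fit, and Benjamini-Hochberg adjustment over all genes tested (15636 in the age table and 14850 in the spike-in table). Genes with 0 counts in more than 25% of libraries were left out. A gene was called at an adjusted p under 0.05. Fits relative to mitochondrial mRNA took the summed counts of the 13 mRNAs as library size. Levels are CPM on TMM-scaled library sizes. The alternatives were DESeq2 1.42.0, no TMM, no filter, only the groups compared, the library pair as a block, another reference for the relative fits, and each replicate left out. The scripts were tested on simulated counts. Input and enrichment libraries of the same number were taken as pairs from the same RNA, which the labels do not state. The main fits did not use the pairs. Deviations of paired libraries from their group means had correlations of 0.153 to 0.259 in young and 0.135 to 0.260 in aged livers. In the spike-in experiment every pair of the 1%, 5% and 10% mixtures was over 0.1, and 1 of 3 in the 0% mixture was. Nuclear copies were found with blastn 2.17.0 against annotated transcripts. All mRNA and rRNA genes, the tested tRNAs, a fixed set of nuclear genes and nuclear copies with a mean of at least 50 counts were named by rule, and Gm10222, Gm28439, Nnt and mt-Tg were named after their values were seen.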

Additional observations from a re-analysis of the deposited data

Results flagged for a closer look

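In 2 groups 1 library stood apart from the other 3 by the size of the gap to its nearest neighbour, among 106 values so examined, and chance alone gives about 1 in 20. In aged input the level of mt-Nd6 was 569 CPM in replicate 2, below the other libraries, and without that library the difference of mt-Nd6 between aged and young input was -0.32 and did not pass the test (adjusted p = 0.071 in edgeR), against -0.39 with it (0.021). In aged enrichment the level of mt-Nd3 was 0.0829 CPM in replicate 3, which is 1 count, and 0 in the other 3 libraries.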

How the results depend on the processing

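The counts of mitochondrial genes lower in enrichment ran from 22 to 27 in young and from 22 to 24 in aged livers over the alternatives, and 0 were higher except for 1 in aged livers with the library pair as a block (replicate block). The block gave 24 and 23 lower in young and aged livers, 17 over the mixtures, 11, 8, 12 and 8 in the 0%, 1%, 5% and 10% mixtures, and 14 lower for the age difference in input, where animals of the same number are not pairs. It changed no call among the mRNAs and rRNAs in young, aged or mean spike-in enrichment, nor those of mt-Tp and mt-Te there. For the age difference in input, scaling by totals alone gave 7 lower and turned mt-Co1 to 0.0079, mt-Atp8 to 0.089, mt-Nd4 to 0.035 and mt-Cytb to 0.029, and summing mt-Nd3 with Gm28438 gave 0.13. Relative to the counts of all mitochondrial genes mt-Co2 in aged livers was at -0.034, and with each aged replicate left out it ran from -0.11 to 0.11 relative to mRNA. Relative to mRNA, mt-Nd4l ran from -0.32 to 0.087 in young livers and from -0.14 to 0.81 in aged livers with each replicate left out. The values that turned did not pass a test. In the 0% mixture 15 genes were lower with no filter. In the 1% mixture 2 were lower with DESeq2, 6 with totals alone, 10 with no filter (and 2 higher) and 0 with only the groups compared. In the 10% mixture 3 were lower with DESeq2, 12 with totals alone, 12 with no filter and 11 with only the groups compared. The share of counts in aged input was 5.33% of nuclear counts. The causes were not tested.

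With each replicate left out in turn, 7 to 13 genes were lower for the age difference in input, 1 to 2 in each relative fit, 0 to 12 in the 0% mixture, 0 to 21 in the 1% mixture, 3 to 12 in the 5% mixture and 0 to 2 in the 10% mixture. Of the values of single genes, 604 kept their direction and side of the threshold under the other alternatives, 7 came to pass it, 5 ceased to and 6 turned. With a replicate left out the numbers were 587, 5, 16 and 4. Using only the groups compared was not run for the age difference in enrichment or the mean of the mixtures, since all groups of the table enter these. Depth limited mt-Atp8, mt-Nd4l and most tRNAs, which had few counts in enrichment. The gene mt-Nd3 had few counts in aged enrichment too, but there most counts of mt-Nd3 and its copy Gm28438 lay on the copy. The part of depth in the low counts of mt-Nd3 was not tested.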

Other observations

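Counts on the following nuclear copies were also lower in enrichment in the age experiment. Whether these counts came from nuclear RNA was not tested. The log2 fold changes in young and aged livers were -2.78 and -2.46 for Gm28661, -2.88 and -2.56 for Gm10925, -3.17 and -3.65 for Gm28437, -3.79 and -3.59 for Gm13340 and -3.00 and -2.82 for Gm29216. The copy of mt-Nd4l, Gm10222, chosen after its values were seen, had 10 to 17 counts in young input and 32 to 65 in aged input, a log2 difference of 1.21 (adjusted p = 0.009 in edgeR), where mt-Nd4l was at -1.51.

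Nnt, a nuclear gene for the mitochondrial nicotinamide nucleotide transhydrogenase and known for a deletion in one substrain of C57BL/6 mice, was looked at after its values were seen. It had 1 to 19 counts in every library of the age experiment. In the spike-in experiment its inputs had 5 to 12 counts in the 0% mixture and 3 to 5 in the 5% mixture, and 752 to 985 in the 1% mixture and 1008 to 1057 in the 10% mixture.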
